A study of Mus musculus with 2 samples.

Results

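The genes described here are the 201 annotated mouse microRNA genes from Mir6896 to Mir7094, a run of registry numbers given mainly to predicted mirtrons. They were chosen by symbol alone from the 2202 microRNA genes counted, and genes without reads were kept. MicroRNA-seq had been done on total RNA, with a size range below 30, from the left cerebral cortex of adult males (8 to 10 months) of strain 5xFAD/CAST, in 2 libraries labelled as biological replicates 1 and 2. The 5xFAD mouse is a transgenic model of amyloid deposition in which a neuronal promoter drives the transgenes; CAST stands for an inbred strain bred from wild-caught mice. Whether the animals of these libraries were carriers is not stated in the labels. There is 1 group and no control group was analysed, and since the libraries share a donor identifier, their spread and the p-values below may reflect technical differences alone. Levels are given as sense reads per 1000000 reads assigned to microRNA genes (CPM). MicroRNAs typical of neurons were abundant, with Mir132 at 19682 and 44698 CPM in replicates 1 and 2. The libraries differed the other way for Mir128-1, at 13556 and 7493 CPM, and Mir137, at 12338 and 6351 CPM. Of genes typical of other tissues, Mir122 of liver was at 69.0 and 50.9 CPM and Mir206 of muscle at 35.5 and 45.9 CPM. Both stood above Mir6944 (31.8 and 32.4 CPM) and above all genes of the run with a lower mean than Mir6944.

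Most microRNAs are cut from a long transcript by the nuclear enzyme Drosha and then by Dicer in the cytoplasm. A mirtron avoids the Drosha step: its hairpin is a short intron of a host gene, and splicing sets its ends. In tailed mirtrons splicing sets only one end, and the bases that remain on the other side are trimmed by exonucleases. Mammalian genomes hold many mirtrons, usually with few reads each, and most of these are made in the course of expressing an ordinary protein-coding gene.

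The mature sequences of 5 of the most abundant members are shown first, to let the base composition of their arms be read directly. They are RefSeq sequences for GRCm38.p6, written 5′ to 3′, with the seed (bases 2 to 8, the part that pairs with targets) in capitals. Both arms are given, since the counts are per microRNA gene and do not tell the arms apart.
mmu-miR-7080-5p: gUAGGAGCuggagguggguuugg
mmu-miR-7080-3p: cAGGCUCAccccuccguucccu
mmu-miR-7044-5p: gUGUGGUGgugguggcggc
mmu-miR-7044-3p: aUGCAGCCccgacccucacag
mmu-miR-6944-5p: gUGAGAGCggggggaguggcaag
mmu-miR-6944-3p: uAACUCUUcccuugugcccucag
mmu-miR-7019-5p: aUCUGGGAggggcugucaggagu
mmu-miR-7019-3p: uCACCUUGgccgccucucugcag
mmu-miR-7046-5p: uGUAGGGUgaggcugggagccagg
mmu-miR-7046-3p: uGAACCACccaucccccuacag
In each of these genes the 5p arm is rich in G and the 3p arm in C and U, and 4 of the 5 3p arms printed end in AG, the last bases of an intron.

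Most of the members lay at the 3′ end of an intron. In the GENCODE M21 annotation of mm10, 187 of the 201 hairpins (93.0%) ended within 5 bases of the 3′ end of an intron of a gene on the same strand, and 186 ended exactly there. Among the other 2001 microRNA genes this held for 42 (2.10%). The rule that chose the members used symbols only, but the numbers were given mainly to predicted mirtrons, so this place, and the base composition that goes with it, describes the block and is no test of it. Only 15 members had both ends at the ends of 1 intron, as a classical mirtron has, and the other 172 shared only the 3′ end, the layout of a mirtron with a 5′ tail. Of the remaining 14, 4 shared only the intron's 5′ end, 8 crossed an intron end, 7 of them running 6 or 7 bases into the exon at the 3′ side, and 2 lay inside an intron. In 29 of the 187, 8 of them among the 40 members counted as detected below, the hairpin also overlapped an exon of another transcript on its strand. The hosts of 199 members were protein-coding genes, and 5 hosts carried 2 members each.

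The 2 layouts can be read from the hairpins. In Mir7080 (chromosome 8, 123130106 to 123130172, plus strand) the 67 bases of the hairpin are a whole intron of Cpne7 (and overlap an exon of another transcript), with the intron's first and last dinucleotides in capitals. Mir6944 (chromosome 13, 55477681 to 55477776, minus strand) is likewise the whole 96-base intron of Dbn1, the gene of the actin-binding protein drebrin of dendritic spines. Mir7044 (chromosome 6, 118085192 to 118085263, plus strand) is the last 72 bases of a 705-base intron of Rasgef1a, a gene of a Ras exchange factor, and only its 3′ end is a splice site of that intron.
Mir7080 hairpin: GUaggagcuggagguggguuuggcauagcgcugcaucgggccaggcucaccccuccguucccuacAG
Mir6944 hairpin: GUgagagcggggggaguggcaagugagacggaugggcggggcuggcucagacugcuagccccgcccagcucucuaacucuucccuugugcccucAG
Mir7044 hairpin: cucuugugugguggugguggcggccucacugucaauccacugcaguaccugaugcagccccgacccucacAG
The introns of the 15 members with both ends were 67 to 137 bases long (median 83). In the 172 with a 5′ tail, the intron ran for 7 to 36205 bases before the hairpin (median 502), with quartiles of 84.5 and 1414 bases.

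**Figure D1:**
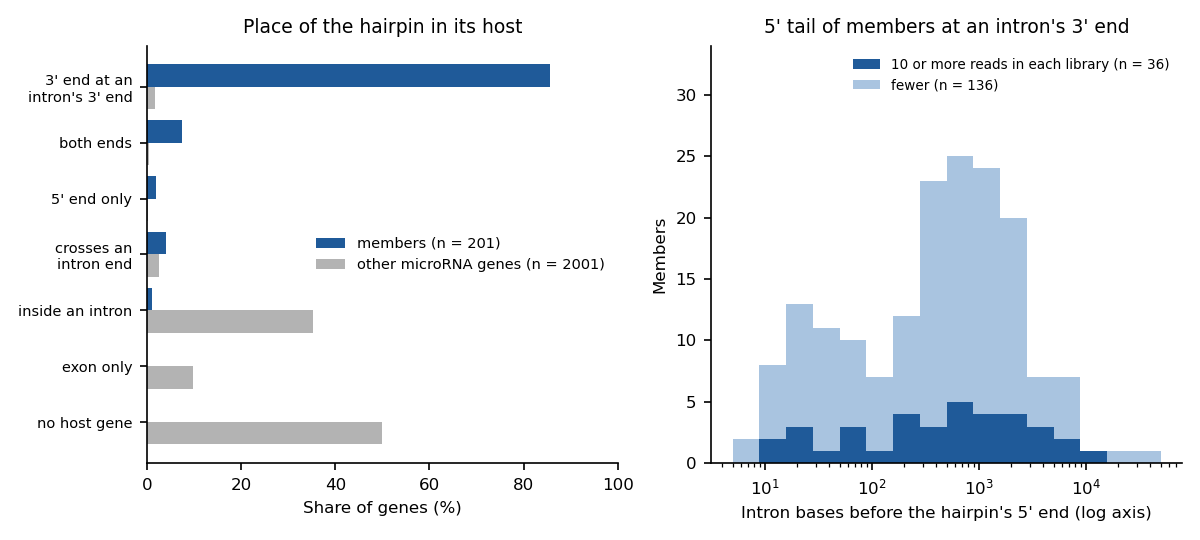
Left, the share of genes (%) by the place of the annotated hairpin in its host, for the 201 members and the 2001 other microRNA genes, with a tolerance of 5 bases at an intron end. Right, the number of members by the bases of intron before the hairpin (log axis) for the 172 that share only the intron's 3′ end, split by whether they had at least 10 reads in each library: 36 had, and they are spread over short and long tails.

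The bases of the mature arms differed from those of other microRNAs and resembled the end of an intron, which carries a run of pyrimidines before a final AG. RefSeq entries were found for 185 of the 201 members, and 177 mature sequences of each arm were read. The 3p arms held a median of 72.2% C and U, against 54.5% in 554 3p arms of other microRNA genes, and 176 of 177 were above 50%. The 5p arms, which pair with them, held a median of 31.8% C and U against 50% in 550 others, and G alone made up 43.5% of a median 5p arm against 27.3%. An AG ended 137 of the 177 3p arms (77.4%) and 61 of the 554 others (11.0%). Arms of other microRNA genes that also end at an intron's 3′ end had medians close to the members', 68.9% C and U in 36 3p arms and 33.3% in 35 5p arms, while 19 of those 36 3p arms (52.8%) ended in AG. The median of the 3p arms was 71.4% for the 36 of members with at least 10 reads in each library and 72.7% for the 141 other arms. These shares describe sequences, which overlap in kind and are not replicates, so no test was made.

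**Figure D2:**
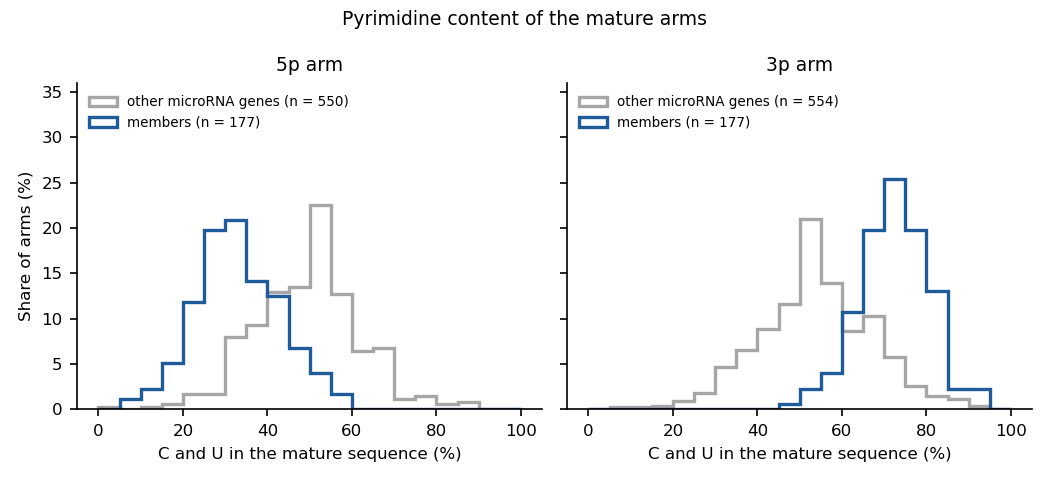
Share of mature arms (%) by their content of C and U (%), in steps of 5, for the 5p arms (left) and the 3p arms (right) of members and of other microRNA genes. The members' 5p arms lie to the left of the others, around 31.8%, and their 3p arms to the right, around 72.2%.

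The precursors were short and rich in G and C. Their median length was 66 bases (52 to 137) against 93 in the other microRNA genes, and their median GC content was 57.1% (25.3 to 81.5%) against 50%. The predicted folding energy of the members' hairpins had a median of -0.389 kcal/mol per base, close to that of the other genes at -0.365. The 40 members that reached 10 reads in both libraries were at -0.424 and 60.2% GC, and the 43 without reads at -0.380 and 53.2% GC. The 377 other microRNA genes that reached 10 reads in both libraries had a median folding energy of -0.437, so the lower value is not particular to the members. Only 4 members (1.99%) held 20 consecutive bases found in a further annotated microRNA gene as well, against 1129 of the 2001 others (56.4%). The 4 are Mir7094-1 and Mir7094-2, which share it with each other, Mir7065 and Mir6970. Multimapping reads were counted apart from the genes, and of these 4 genes only Mir6970 had reads, 5 and 1.

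The block was broadly but thinly covered. The counts are per gene, so reads of mature microRNAs and of host RNA fragments from the same place cannot be told apart. Reads that map to several places were not assigned to a gene. A stretch of 20 bases shared with another microRNA gene was held by 1.99% of members and 56.4% of the other genes. It was held by 45.5% of let-7 and the genes with numbers of at most 3 digits, and by 81.0% of unnumbered genes. The part of this in the shares below was not tested. Of the 201 members, 158 (78.6%) had at least 1 read in either library, against 34.8% of all 2202 microRNA genes, and 117 had reads in both. The overall share includes 1028 genes without a registry number in their symbol, of which 5.84% had a read. Among the 42 other genes that end at an intron's 3′ end 34 (81.0%) had one. Those 42 include Gm27740 and Gm27775, both without reads. Their mature sequence is named miR-6967-5p, a number inside the block, but the choice by symbol left them out of the members. The share with any read was 65.3% for the 525 genes of let-7 and the lowest registry numbers (at most 3 digits), 10.4% for the 96 genes numbered just below the block, 46.1% for the 115 numbered above it, and 55.8% and 62.3% for the 86 and 151 genes in the 2 blocks of intermediate number. With at least 10 reads in each library, the minimum for calling a gene detected, the picture differed: 40 members (19.9%) passed it, near the 18.9% of all microRNA genes and below the 53.5% of the lowest numbers. No member that lacked the 3′ end of an intron was among the 40, but only 14 members are of that kind, and 10 of them had some reads. Of the 15 members that are whole introns 4 were detected, and of the 172 with a 5′ tail 36 were.

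**Figure D3:**
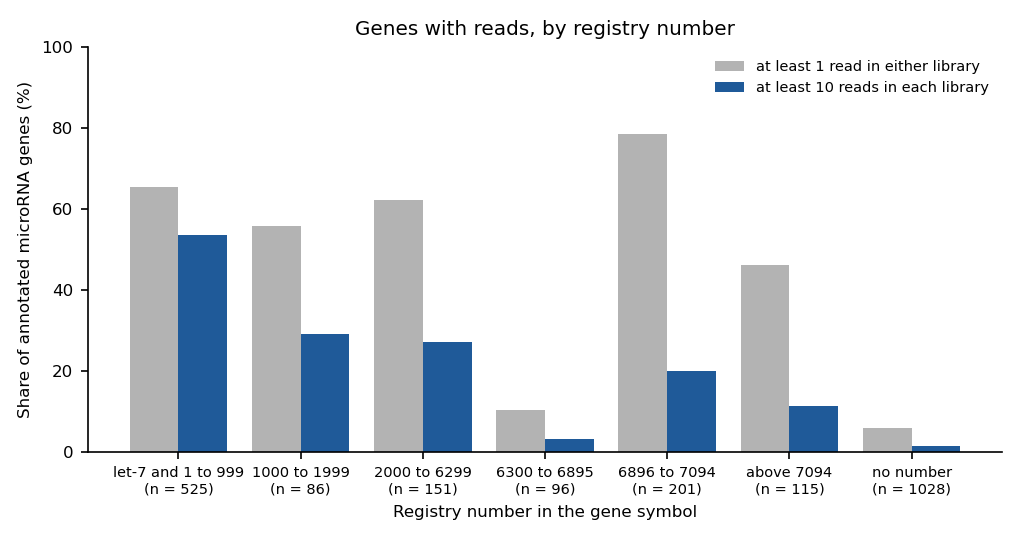
Share of annotated microRNA genes (%) with at least 1 read in either library (grey) and with at least 10 reads in each library (blue), by the registry number in the gene symbol. The bar pair of Mir6896 to Mir7094 has the tallest grey bar, at 78.6%, and a blue bar of 19.9%.

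Together the members supplied 3205 of 4929428 assigned reads in replicate 1 and 2996 of 4441328 in replicate 2. These are 0.0650% (exact Clopper-Pearson 95% interval 0.0628 to 0.0673%) and 0.0675% (0.0651 to 0.0699%), with a mean of 0.0662 ± 0.00173% (SD, n = 2). The interval covers counting error only, and the libraries' intervals overlap. Each member was low on its own: 43 had no read, 70 had 1 to 9 reads in the sum of both libraries, 40 had 10 to 19, 37 had 20 to 99 and 11 had 100 or more. For a member without reads, a count of 0 allows a level of up to that of 3 reads (0.609 CPM in the first library and 0.675 CPM in the other), a one-sided limit for counting error alone; the two-sided exact 95% intervals used for the levels reach 0.748 and 0.831 CPM. In bulk tissue, fewer cells of a type and less RNA per cell cannot be told apart. The 4 highest members held 46.9% of the block's reads in replicate 1 and 42.0% in replicate 2, and without them the share was 0.0368 ± 0.00326%.

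Mir7080 in Cpne7, a gene of the calcium-binding copines, was the most abundant member. It had 572 reads in replicate 1 and 512 in replicate 2, or 116.0 and 115.3 CPM, and ranked 196 among all microRNA genes by mean CPM. Its log2 ratio of replicate 2 to replicate 1 was -0.01 (exact 95% interval -0.18 to 0.17), a range that includes 0.

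Mir7044 in Rasgef1a came next and differed between the libraries. Besides the intron end, it overlaps an exon of another annotated transcript on its strand. Its 538 and 319 reads correspond to 109.1 and 71.8 CPM in replicates 1 and 2. The log2 ratio of replicate 2 to replicate 1 was -0.60 (-0.81 to -0.40, adjusted p = 6.39e-09, exact two-sided binomial test).

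Mir7047 had 236 and 283 reads, 47.9 and 63.7 CPM, and was higher in replicate 2 (log2 ratio 0.41, interval 0.16 to 0.67, adjusted p = 0.00253, exact binomial test). Mir6944 in Dbn1 had 157 and 144 reads, 31.8 and 32.4 CPM, with a log2 ratio of 0.03 (-0.31 to 0.36). The exact intervals of Mir7047 and Mir6944 did not overlap in either library. Those of Mir7044 and Mir7047 overlapped in replicate 2, and those of Mir7080 and Mir7044 in replicate 1, at 106.7 to 125.9 and 100.1 to 118.8 CPM.

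Next came 7 members with mean levels of 10.9 to 20.5 CPM. Mir7019 (chromosome 4, 138316132 to 138316200, minus strand) lies in Pink1, the mitochondrial kinase gene mutated in familial Parkinson disease, and had 89 and 102 reads. Mir6953 (chromosome 15, 76248191 to 76248258, plus strand), with 82 and 69 reads, lies in Grina, the gene of a glutamate receptor-associated membrane protein, after a tail of only 13 bases. Mir7046 (chromosome 7, 24970010 to 24970075, minus strand), in Rabac1, whose product binds Rab proteins, had 66 and 57 reads and a tail of 11 bases. In these 3 genes the interval of the log2 ratio between the libraries included 0.

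Mir6982, in the gene of the synaptic kinase Camk2a, had 102 and 50 reads, or 20.7 and 11.3 CPM, and was lower in replicate 2 (log2 ratio -0.88, interval -1.40 to -0.38, adjusted p = 0.000678, exact binomial test). Mir7052 in the deubiquitinase gene Josd2 had 54 and 63 reads, and Mir7066 in Ncan, the gene of neurocan, a proteoglycan of the brain's extracellular matrix, had 50 and 59; neither passed the test. Mir7031 in Sh2b3, the gene of the signalling adaptor Lnk, had 25 and 74 reads, 5.07 and 16.7 CPM, the widest gap of the detected members (log2 ratio 1.72, interval 1.04 to 2.43, adjusted p = 1.15e-07, exact binomial test).

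**Figure D4:**
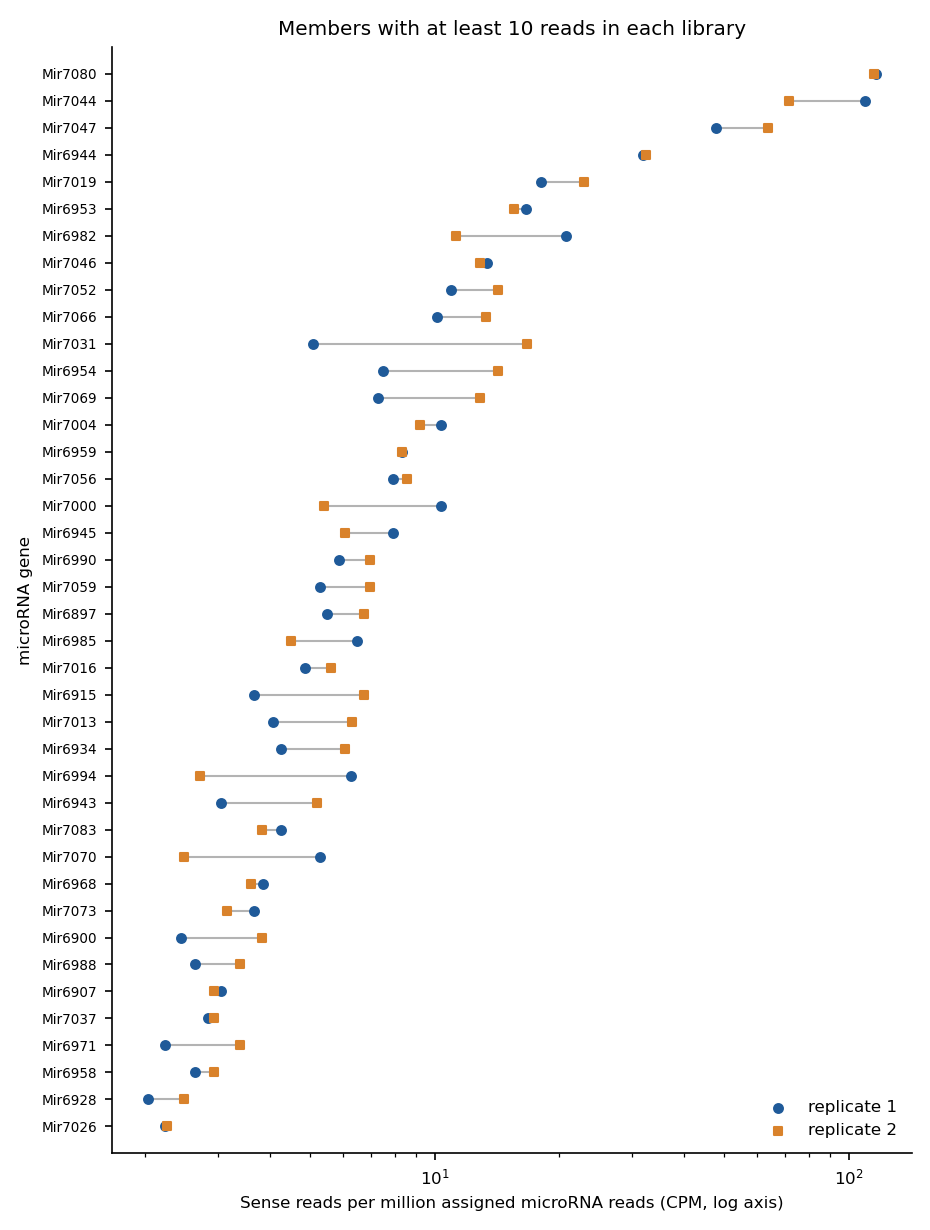
Level of each of the 40 detected members in replicate 1 (circles) and replicate 2 (squares), in CPM of sense reads on a log axis. The levels run from 116.0 CPM for Mir7080 down to 2.03 CPM for Mir6928 in replicate 1, and the grey lines join the 2 libraries.

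The remaining detected members lay between 2.24 and 10.8 CPM on average. Among them were Mir7004 in Atp9a, a lipid flippase gene (51 and 41 reads), Mir6959 in Sbf1, a myotubularin-related gene (41 and 37), and Mir7056 in Ptpn5, the gene of the striatal-enriched phosphatase STEP (39 and 38). Mir7059 lies in Cln3, the gene of a lysosomal membrane protein lost in a childhood neurodegenerative disease, and had 26 and 31 reads. Mir6990 in the nuclear receptor gene Esrra had 29 and 31, Mir6897 in Uggt1 had 27 and 30, and Mir7016 in Tmem39b had 24 and 25. The following members had at most 66 reads in sum and lay in genes of varied function. Mir7013 in Pi4kb, a lipid kinase gene, had 20 and 28 reads, Mir6934 in Tbc1d16 had 21 and 27, and Mir6943 in Grk6, a kinase of G protein-coupled receptors, had 15 and 23. Mir6945 in Pdlim7 had 39 and 27, Mir7083 in Dock6 had 21 and 17, and Mir6968 in Phf1 had 19 and 16. Mir7073 lies in Cnot1, the scaffold of the deadenylase complex that microRNAs recruit (18 and 14 reads), Mir7037 in the Integrator gene Ints1 (14 and 13), Mir6900 in the respiratory complex gene Ndufa10 (12 and 17) and Mir6988 in the ubiquitin ligase gene Syvn1 (13 and 15). The lowest detected members, Mir6928 in the proton pump gene Atp6v0a1 and Mir7026 in Ep400, had 10 and 11 and 11 and 10 reads. At such counts the exact intervals are wide: for Mir7026 they ran from 1.11 to 3.99 CPM in replicate 1. Of the 39 pairs of neighbours in the order of mean levels, 34 had overlapping exact intervals in both libraries; apart from Mir7066 and Mir7031, the exceptions were the pairs from Mir7080 down to Mir7019.

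Below the minimum, 118 members had reads, together 514 and 555, and none had a mean above 3.96 CPM. The highest of them by summed reads were Mir6986 in Rce1 (8 and 28), Mir6962 in the receptor gene Acvr1b (8 and 22), Mir7023 in the kinase gene Pik3cd (16 and 8), Mir6912 in Scamp4 (6 and 17) and Mir6906 in Spock2 (9 and 13). In 41 members the reads were in 1 library only, in 17 of them as a single read. Mir6997 in the spectrin gene Sptan1 (12 and 0 reads) and Mir6952 in the polarity gene Scrib (10 and 0), chosen after their values were seen, had the most reads of these.

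The 5 host genes with a pair of members can be set side by side. Skiv2l carried Mir6971 (11 and 15 reads), with a tail, and Mir6970 (5 and 1), a whole intron that shares 20 bases with Gm27471. Ankrd52 carried Mir6915 (18 and 30) and Mir6914 (0 and 3), Cmip carried Mir7078 (2 and 6) and Mir7077 (6 and 0), Srebf1 carried Mir6922 (2 and 1) and Mir6921 (4 and 0), and Arap3 carried Mir6980 (2 and 1) and Mir6981 (no read). Only in Skiv2l and Ankrd52 did a pair hold a detected member. The exact intervals of the pair did not overlap in Ankrd52 in either library and in Skiv2l in replicate 2, and they overlapped in both libraries for Cmip, Srebf1 and Arap3.

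Members were also described by where their host genes are known to act. These host groups were put together after the values were seen, are not complete and are a description only, to be read beside the 78.6% of all members with any read and the 19.9% detected. For 7 neuronal or brain matrix hosts, all 7 members had reads in both libraries and 5 were detected: besides Mir6944, Mir6982, Mir7066 and Mir7056 these were Mir7000 in Mapk8ip1 (51 and 24 reads), and the other two, Mir7055 in the vesicular glutamate transporter gene Slc17a7 (2 and 11) and Mir6906 in Spock2, were below the minimum. Other hosts known from neurons, outside the 7, went both ways. Mir6953 in Grina was detected (82 and 69 reads), and Mir6977 in Ptprs (4 and 14) and Mir6997 in Sptan1 (12 and 0) were below the minimum. The share of the 7 therefore depends on which hosts were picked. For 13 blood and immune hosts no member was detected and 4 had any read, 7 reads in replicate 1 and 2 in replicate 2. The most was at Mir6983 in Csf1r, the receptor of microglia and macrophages, with 5 and 1 reads, and there was none in the mast cell and basophil genes Cpa3 (Mir7007) and Mcpt8 (Mir6949), the complement genes C3 (Mir6978) and Cfb (Mir6972), or Il10ra (Mir7086). The 13 include Mir7094-1 and Mir7094-2, which share 20 bases with each other. Hosts outside these groups that are also known from blood cells had members with more reads: Sh2b3 with Mir7031 (25 and 74, detected), Pik3cd with Mir7023 (16 and 8) and Adam8 with Mir7062 (9 and 10). The members in the pancreatic genes Ctrb1 and Clps, Mir7076 and Mir6969, and Mir6923 in the embryonic myosin gene Myh3 had no read. Transcripts of the host genes were not measured in these libraries.

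Between the libraries, 8 of the 40 detected members (20.0%) differed by an exact two-sided binomial test with Benjamini-Hochberg adjustment over all 417 detected microRNA genes. Of all 417 genes 59.2% differed, so the members' share lay below the background. The detected members had a median of 57 reads over both libraries, and the part of depth in their share was not tested. Among 180 other detected genes of the same range of levels, with a median of 148.5 reads, 38.9% differed. The gaps had a median absolute log2 ratio of 0.36 for the members, 0.37 for all detected genes and 0.40 for those 180. The test takes account of counting error alone and compares these 2 libraries, not conditions.

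Of the 8, 4 were higher in replicate 2 (24.7% of all 417 genes were) and 4 were lower (34.5%). Higher, besides Mir7047 and Mir7031, were Mir6954 in Mroh1, with 37 and 63 reads (log2 ratio 0.92, interval 0.31 to 1.54), and Mir7069 in the phenylalanine tRNA synthetase gene Farsa, with 36 and 57 reads (0.81, interval 0.19 to 1.46). Lower, besides Mir7044 and Mir6982, were Mir7000 in the scaffold gene Mapk8ip1 with a log2 ratio of -0.94 (-1.70 to -0.21) and Mir6994 in Patl1, with 31 and 12 reads (-1.22, interval -2.32 to -0.22). At an unadjusted p under 0.05, 10 of the 40 differed in the same exact test, a count that was not made for all 417 genes. Of the 8, Mir7031 and Mir6994 alone had a gap of at least 2-fold. Passing the test aside, 3 of the 40 members had such a gap, against 49 of all 417 genes. It was 26 of the 180 other detected genes of the same range of levels. Mir7070 in Fbxw9, a whole intron with 26 and 11 reads, was also 2-fold apart (-1.09) but did not pass (adjusted p = 0.0550, exact binomial test).

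**Figure D5:**
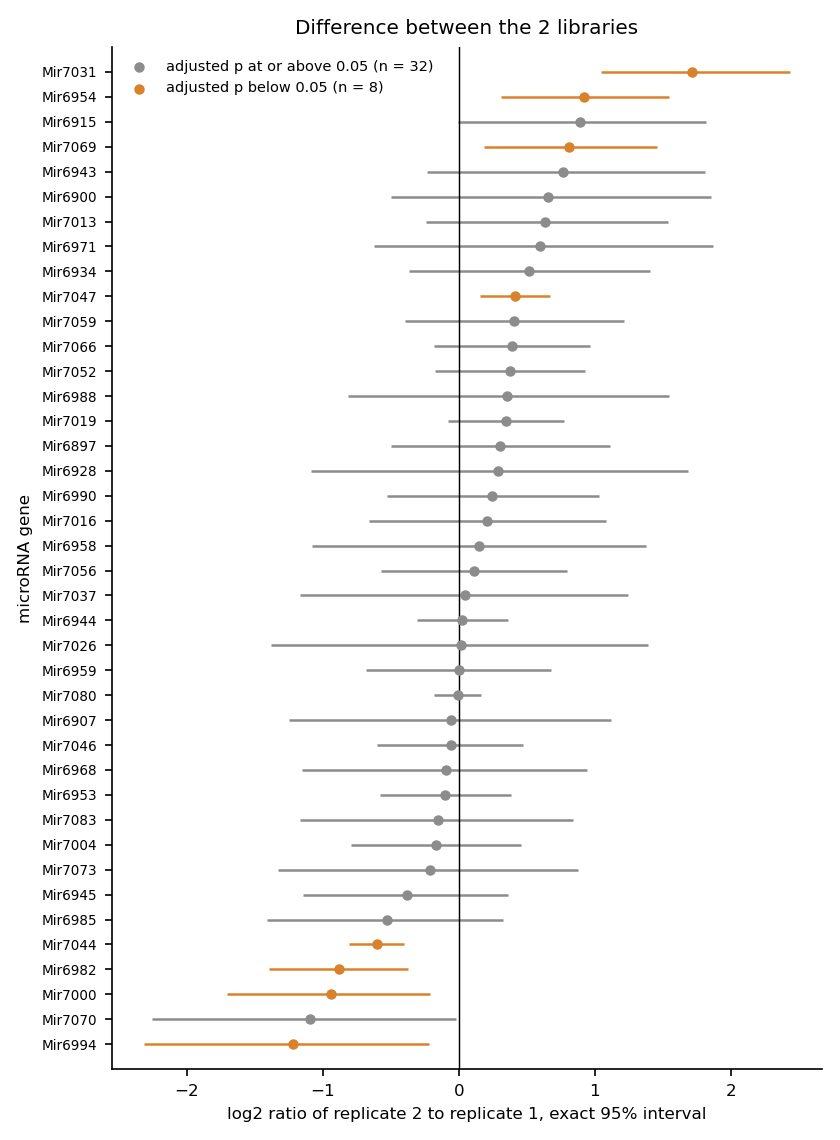
log2 ratio of replicate 2 to replicate 1 for each of the 40 detected members, as points with exact 95% intervals. The 8 members with an adjusted p below 0.05 are in orange, from -1.22 for Mir6994 to 1.72 for Mir7031, and the other 32 are in grey.

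The best-known mirtrons of lower number stood above the members. Of 4 such genes, Mir1981 in Marc2 had 471 and 505 CPM, Mir1224 in Vwa5b2 had 410 and 387, Mir877 in Abcf1 had 258 and 416 and Mir702 in Plod3 had 323 and 286, each above the highest member in both libraries. The 4 genes together took 0.153 ± 0.00934% of the reads (n = 2), more than the 201 members. Of the 8 other microRNA genes that are whole introns 7 were detected, with a median of 337 CPM, against 4 of 15 members with a median of 18 CPM. Of the 34 others that share only an intron's 3′ end 11 were detected, with a median of 9.38 CPM, against 36 of 172 members with 6.12 CPM. The layouts are not all alike, since among the 34 the hairpins of Mir702, Mir3062 and Mir6537 start before the intron and have no 5′ tail. The highest of these 34 by far was Mir382 of the Dlk1-Dio3 locus, which ends within 5 bases of the end of an intron of Mirg, with 27933 and 30369 reads.

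Of 3 other microRNAs that bypass a step of the usual pathway, Mir320 and Mir484 stood above every member in both libraries, and Mir451a did so in replicate 1 but lay below Mir7080, Mir7044 and Mir7047 in replicate 2. Mir320 had 3317 and 4979 CPM, Mir484 had 1001 and 1398, both made without Drosha, and Mir451a, made without Dicer and typical of red blood cells, had 529 and 52.2. In counts without regard to strand Mir451a was at 0 CPM, so its level rests on the sense count. The comparison list of 7 intronic microRNAs that Drosha cuts from within an intron was drawn from abundant genes, and its levels describe those genes and not the class. They ran from 10324 ± 3759 CPM for Mir26b in Ctdsp1 to 126656 ± 10647 CPM for Mir139 in Pde2a, with Mir128-1, Mir652, Mir151, Mir744 and Mirlet7g between them.

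Of the 354 mature arms of members, 267 had a seed found in no other mouse mature microRNA of the RefSeq table, and 87 shared theirs. Among the 72 arms of detected members, 55 had a seed of their own and 17 shared theirs. The same share in other microRNA genes was not computed, so these counts describe the block only. A single pair of detected members shared a seed, Mir7019 and Mir6907 in Rrp1 (15 and 13 reads). That pair is shown here, with 4 detected members whose seed occurs in a microRNA outside the block that had many reads, so that the letters beyond the seed can be compared.
mmu-miR-7019-5p: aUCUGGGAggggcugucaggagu
mmu-miR-6907-5p: uUCUGGGAcacagggaggcucg
mmu-miR-7016-5p: cAGGGAGGggagcgagaguag
mmu-miR-149-3p: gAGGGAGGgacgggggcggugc
mmu-miR-6915-5p: aGGUCAGAgcagauggagguucgu
mmu-miR-540-3p: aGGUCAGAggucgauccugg
mmu-miR-6985-3p: cUCACAGCcaccuccucacag
mmu-miR-673-5p: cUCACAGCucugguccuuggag
mmu-miR-6958-5p: gUGGGAGAagaggcugcugugg
mmu-miR-30c-2-3p: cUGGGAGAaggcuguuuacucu
These 4 partners were picked for their abundance, with mean levels of 6633 CPM at Mir149 against 5.25 CPM at Mir7016, 774 CPM at Mir540 against 5.20 CPM at Mir6915, 495 CPM at Mir673 against 5.50 CPM at Mir6985, and 195 CPM at Mir30c-2 against 2.78 CPM at Mir6958. These are counts of small RNA reads per microRNA gene, in which the arm that carries the shared seed is not told apart. Mir7047, the most abundant member with a shared seed, had it in common with Mir6965 (no read) and with Mir3103 outside the block (15 and 4 reads). Other partners outside the block varied. Mir30c-1 (493 and 615 reads) shares a seed with Mir6958, Mir18 (114 and 92) with Mir7069 and Mir344g (9 and 35) with Mir7070. Fewer reads in sum lay at Mir3474 (22 and 10), which shares a seed with Mir6945, and at Mir1943 (10 and 20), with Mir7016. Mir3062 (0 and 3) shares one with Mir7000, and Mir5106 and Mir6365, both without reads, with Mir6897 and Mir7073. Gm27740 and Gm27775, also without reads, share the seed of their miR-6967-5p with Mir7016.

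Reads on the strand opposite to the members were few, 4 in replicate 1 and 2 in replicate 2. They lay at Mir6936 in Sirt7 (3 and 0, beside a sense count of 8 and 7), Mir6907 (1 and 0), Mir6911 (0 and 1) and Mir7071 (0 and 1).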

How the data were processed

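MicroRNA-seq of 2 libraries of 1 group was analysed. The deposited tables hold raw read counts for 2202 microRNA genes, made by the authors against mm10 and GENCODE M21, per the notes deposited with the files; for the aligner, the counter and strand settings, no source used here gives names. Sense counts were used and scaled to 1000000 reads assigned to microRNA genes, which were 4929428 of 16403925 reads in replicate 1 and 4441328 of 16991914 in replicate 2. Lines of unassigned reads stayed out; reads mapping to several places were 38.5% and 33.0% of all reads. One read is 0.203 and 0.225 CPM. Molecular identifiers were not used, and intervals and floors therefore reflect counting error alone.

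All gene identifiers were found in GENCODE M21 (mm10, positions counted from 1). For each hairpin, the intron on its strand with ends closest to the hairpin's was taken from all annotated transcripts, so that other transcripts may differ. Hairpins were folded with ViennaRNA 2.7.2. The libraries were compared by an exact two-sided binomial test (SciPy 1.17.1) with Benjamini-Hochberg adjustment and a threshold of 0.05. The step was tested on simulated data that held counting error alone, so the simulation cannot show how the test behaves with further variation between libraries. Scaling by edgeR 4.0.16 (TMM) and DESeq2 1.42.0 size factors was tried.

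Genes were named by a rule: every detected member, the 5 next by summed reads, up to 3 with the most opposite-strand reads, members with reads that share 20 bases with another microRNA gene, and 3 comparison lists of 4, 3 and 7 genes. The tissue markers Mir132, Mir128-1, Mir137, Mir122 and Mir206 came from a further list. Any other gene named was picked once its values had been seen. The members and lists were chosen with earlier results of these data known. The name and location of a particular host gene, and the sequences there, are not reported here.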

Additional observations from a re-analysis of the deposited data

How the results depend on the processing

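The number of detected members was 40, and it was 70 with a minimum of 5 reads in each library and 92 with a minimum of 3; it was 41, 48 and 40 in counts without regard to strand, with 20 reads in the sum of both and over members that share no 20 bases. Judged in a single library it was 53 to 56, and members with any read were 137 to 138. The share of reads was 0.0714% in counts without regard to strand, 0.0186% of all reads of a library and 0.0368% without the 4 highest members, an alternative chosen after seeing the data; within a single library it was 0.0650 to 0.0675%. Of the members, 8 differed between the libraries, and 19 of 158 did without a filter on low counts (35.9% of all genes did). With 20 reads in the sum of both, 11 of 48 differed (58.6% of all). With at least 10 reads in each library and a gap of 2-fold required as well, 2 differed, a count not made for all genes. TMM and DESeq2 scaling and counts without regard to strand gave 8, and all 8 of these were shared with the 8 of the analysis described. Members ending at an intron's 3′ end were 186 to 196 and whole introns 14 to 18 under other tolerances. Leaving out a library gives no test between libraries. No paired analysis was possible because there is 1 group. Depth limits what can be said of the 118 members with reads under the minimum.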
